A study of Mus musculus with 4 samples.

Results

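The integrated stress response and the unfolded protein response were followed through 43 genes, chosen by symbol among the 24054 genes of the deposited count tables. They fall into an Atf4 branch of 27 genes, the kinases and phosphatase subunits of eIF2α with 5 genes, and an endoplasmic reticulum (ER) branch of 11 genes. RNA-seq was available from 4 libraries of mouse embryonic stem (ES) cells. The wild-type library came from the line wt26 at passage 46. The 3 rescue libraries came from the clones T131-3C, T131-3D and T131-3M, called 3C, 3D and 3M here. Each is a single clone isolated under puromycin from 1 Morc3 knock-out line, which CRISPR had produced from wt26 and into which wild-type Morc3 was returned on a PiggyBac transposon. The libraries share the culture on gelatin without feeders in medium with serum, LIF and added non-essential amino acids. Wild type was a single culture, so the effects of Morc3 history, clonal origin, selection and culture state cannot be told apart. The comparison of rescue with wild type shows how the levels of the stress response genes in cells that had lost and regained Morc3 differ from those of this culture. A knock-out library was not used here.

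Phosphorylation of eIF2α slows translation in general while it favours translation of Atf4, a transcription factor that turns on amino acid synthesis, amino acid uptake and tRNA charging. The kinases answer to different stresses: Eif2ak1 to lack of heme and to mitochondrial stress, Eif2ak3 (PERK) to unfolded protein in the ER, and Eif2ak4 (GCN2) to uncharged tRNA. In the ER, Atf6 is cleaved to an active factor and Ern1 (IRE1α) splices Xbp1 mRNA, and the resulting factors raise chaperones and degradation proteins. In ES cells, amino acid and one-carbon supply is closely tied to proliferation and to the pluripotent state.

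These branches are read by different promoter elements, and the sequences below show both elements in members described further on. Asns, Chac1 and Trib3 are Atf4-branch genes with a CARE match and lower levels in the clones. Gars, Atf3 and Vldlr, which also held a CARE match, lay on both sides of wild type. Calr, Canx and Pdia6 are the ER-branch genes with an ERSE match. A link between a match and the direction of a difference was not tested. The C/EBP-ATF response element (CARE, searched as TGATGNAA) binds Atf4, while the ER stress response element (ERSE, searched as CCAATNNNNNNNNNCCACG) binds Atf6 together with NF-Y. Both were searched on either strand in RefSeq windows of GRCm38.p6 that run from 250 bases before to 50 bases after each gene's start. The capitals mark the match, and each sequence is read 5′ to 3′ on the strand of its gene, so a match on the other strand appears as its reverse complement.
Asns, CARE, chr6:7693214-7693243, gene on the minus strand: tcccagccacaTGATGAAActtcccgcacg
Chac1, CARE, chr2:119351038-119351067, plus strand: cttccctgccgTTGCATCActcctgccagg
Trib3, CARE, chr2:152344028-152344057, minus strand: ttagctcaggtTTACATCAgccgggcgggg
Calr, ERSE, chr8:84847070-84847098, minus strand: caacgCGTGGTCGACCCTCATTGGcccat
Canx, ERSE, chr11:50325795-50325823, minus strand: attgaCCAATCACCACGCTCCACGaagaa
Pdia6, ERSE, chr12:17266486-17266514, plus strand: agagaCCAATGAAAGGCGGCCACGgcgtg

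A window was found for 22 of the 27 Atf4-branch genes, and 8 of these held a CARE match (36.4%), against 4.51% of 27025 genes. Among the 8 were Asns, Chac1, Trib3, Gars, Slc7a11, Atf3 and Vldlr. An ERSE match was present in 3 of the 10 ER-branch genes with a window (30%), against 0.137% of all genes. It was present in 0 of the 22 Atf4-branch genes with a window. The ER-branch gene Herpud1, which helps to remove misfolded protein from the ER, held a CARE match and no ERSE match. The unfolded protein response element (UPRE, searched as TGACGTG and present in 2.22% of all genes) was matched in no member's window. The 4 kinase and phosphatase genes with a window held none of the 3 motifs. No member's window held matches to more than 1 of the motifs. The genes were chosen as known members of these pathways, so the shares describe the lists and not these libraries. A match describes the sequence and is not evidence of binding.

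**Figure D1:**
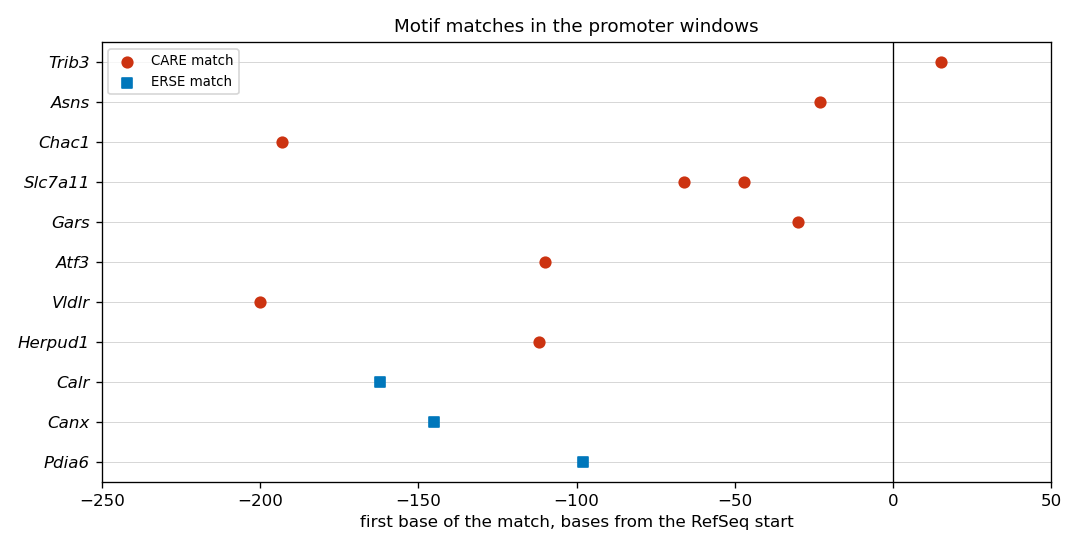
Positions of the motif matches in the promoter windows of 11 members, in bases from the RefSeq start on the horizontal axis (0 is the start, negative is upstream), with 1 row per gene. Circles are CARE matches and squares are ERSE matches; the 3 ERSE matches lie between 162 and 98 bases upstream.

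Wild type had 18789457 read pairs counted to genes, while 3C, 3D and 3M had 13620914, 14662197 and 15479190. Genes received 52.7% of all read pairs in wild type, against 45.1% to 47.0% in the clones. Unmapped read pairs made up 14.5% in wild type, against 21.0% to 23.0% in the clones. Morc3 itself, which checks the labels, had 161 CPM in wild type (CPM, the count relative to the TMM-scaled total of its library) and 655, 497 and 609 CPM in 3C, 3D and 3M. This is 3.65-fold higher in the clones, yet edgeR's quasi-likelihood test over 13267 genes with Benjamini-Hochberg adjustment gave it an adjusted p of 0.11. Only Ddx3y, a Y-linked RNA helicase, passed the adjusted p of 0.01, with 48.3 CPM in wild type and 0.371, 0 and 0.0645 CPM in 3C, 3D and 3M. The part of this difference in the results below was not tested. The 6 ES cell markers summed to 3001 CPM in wild type, against 3037 to 3243 CPM in the clones. The 5 fibroblast markers summed to 32.9 CPM in wild type, against 20.4 to 45.0 CPM in the clones, nearly all of it Thy1, with Col3a1 at 0 in each library. The 6 markers of differentiated cells summed to between 6.45 and 7.34 CPM.

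In the clones, the Atf4 branch lay below wild type in its sum and its median. The ER branch had a higher sum, but its genes lay on both sides of wild type, as did the kinases and phosphatase subunits. No difference of a single member passed the test over all genes. The 27 Atf4-branch genes summed to 5058 CPM in wild type, 4033 in 3C, 4853 in 3D and 4162 in 3M, which is 79.7%, 96.0% and 82.3% of wild type. The 11 ER-branch genes summed to 2211 CPM in wild type and 2495, 2436 and 2487 CPM in 3C, 3D and 3M, or 113%, 110% and 112% of wild type, with Calr, Canx and Pdia3 as its genes of the highest CPM. The 5 kinase and phosphatase genes summed to between 96.1% and 105% of wild type.

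All 43 members passed the filter on low counts, and 0 were called at an adjusted p of 0.01 in edgeR, against 0.00754% of all genes tested. DESeq2 also called 0 of them, against 0.516% of all genes with an adjusted p. With limma-voom 0 of them were called, and 0 of all 13267 genes. At an unadjusted p under 0.05 in edgeR, 7 Atf4-branch genes were lower in the clones and 0 higher, against 4.42% of all genes lower, 5.92% higher and 10.3% in either direction. In the ER branch 3 were higher and 0 lower, and in the kinases and phosphatase subunits 0 passed. DESeq2 gave 4 Atf4-branch genes (all lower) and 2 ER-branch genes (both higher) at the same unadjusted threshold, against 1.18% of all genes lower, 3.21% higher and 4.39% in either direction. limma-voom gave 9 Atf4-branch genes (all lower) and 3 ER-branch genes (all higher), against 5.25% of all genes lower and 5.59% higher.

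The median log2 fold change (rescue minus wild type) was -0.20 over the Atf4 branch, 0.01 over the kinases and phosphatase subunits, 0.06 over the ER branch and 0.01 over all genes tested. For the Atf4 branch the clone medians of the difference in log2 CPM were -0.32 in 3C, -0.07 in 3D and -0.28 in 3M, with a mean of -0.22 ± 0.14 (SD, n = 3). For the ER branch they were 0.09, -0.03 and 0.01. All 3 clones lay below wild type for 17 of the 27 Atf4-branch genes (63.0%), against 28.4% of all genes, and all 3 lay above it for 1 gene (3.70%), against 28.7%. In the ER branch all 3 clones lay above wild type for 5 of the 11 genes and below it for 3 genes (27.3%), close to the 28.4% of all genes. Below wild type were 5 ER-branch genes in 3C, 6 in 3D and 3 in 3M. In these bulk libraries, fewer cells with an active response and less RNA per cell cannot be told apart.

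**Figure D2:**
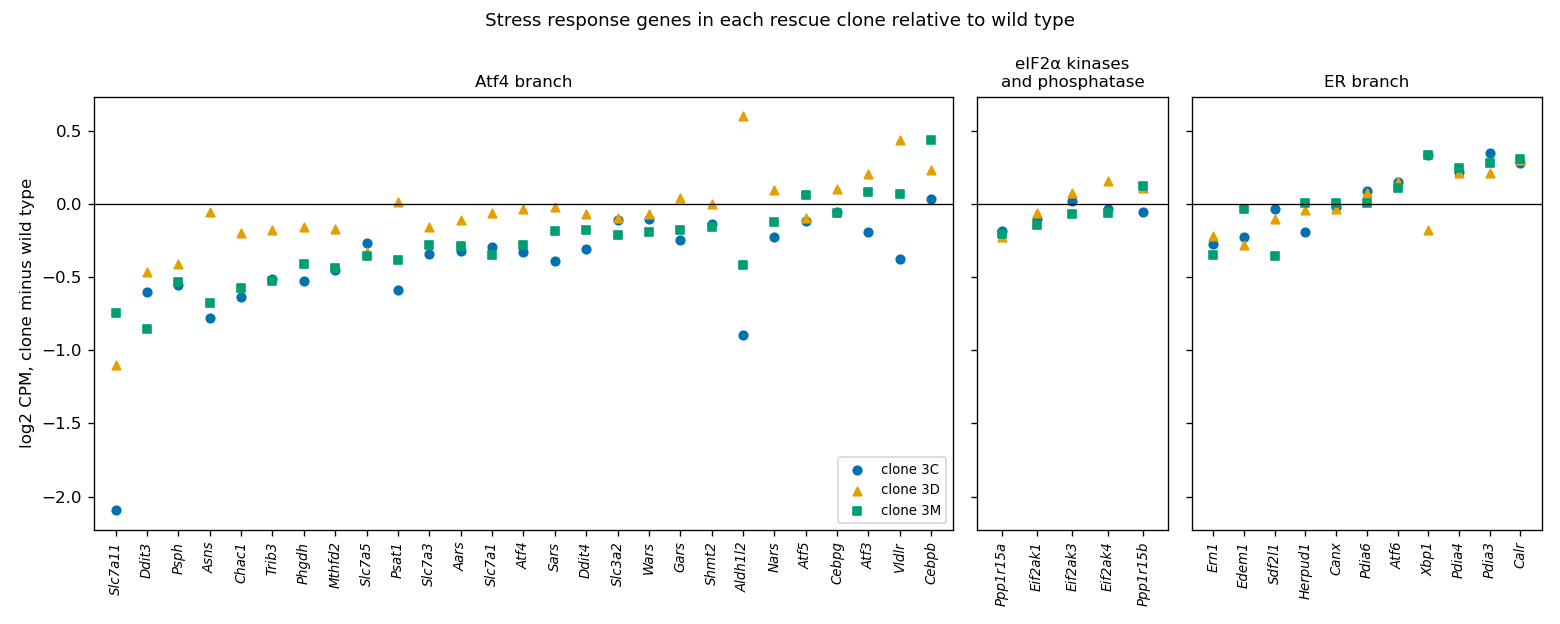
Difference in log2 CPM between each clone and wild type for the 43 members, grouped by branch on the horizontal axis, with 1 point per clone (circle 3C, triangle 3D, square 3M) and wild type at 0. Within the Atf4 branch 3C and 3M lie below 0 for most genes while 3D lies nearer to 0, and in the ER branch Calr, Pdia3 and Pdia4 lie above 0 in each clone.

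**Figure D3:**
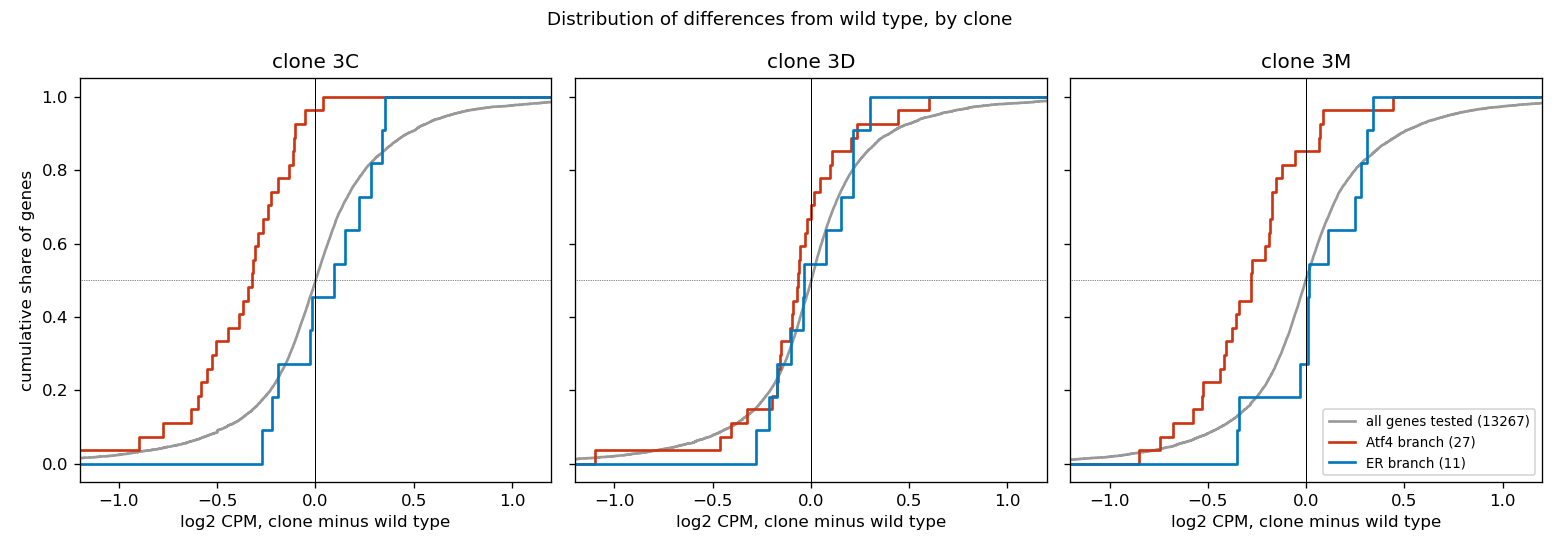
Cumulative share of genes (vertical axis) against the difference in log2 CPM from wild type (horizontal axis), with 1 panel per clone, for all 13267 genes tested, the 27 Atf4-branch genes and the 11 ER-branch genes. The Atf4-branch curve lies to the left of all genes in 3C and 3M, with medians of -0.32 and -0.28, and near it in 3D, with a median of -0.07.

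Among the 8 regulators of the Atf4 branch, Atf4, Ddit3, Trib3 and Ddit4 lay below wild type in all 3 clones, against 28.4% of all genes. Atf4 had 290 CPM in wild type (5534 counts) and 232, 284 and 239 CPM in 3C, 3D and 3M (3123, 4137 and 3709 counts). Clone 3D was near wild type, and 3C and 3M were lower. The log2 fold change was -0.20 (SE 0.12, 95% interval -0.51 to 0.10, edgeR adjusted p = 0.61).

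Ddit3 (CHOP), which promotes cell death under lasting stress, was expressed weakly, at 102 counts in wild type, and 47, 56 and 45 in 3C, 3D and 3M. These are 5.35 CPM against 3.49, 3.85 and 2.90 CPM, with all 3 clones below wild type, as for 28.4% of all genes. The log2 fold change was -0.65 (SE 0.24, unadjusted p = 0.040, edgeR adjusted p = 0.46), and it was -0.46 in the count column that ignores strand. Its 3′ end overlaps that of Mars on the opposite strand, and over the 4 libraries 441 read pairs at Ddit3 lay on that strand against 250 on its own.

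Trib3, a pseudokinase that holds back Atf4 and Ddit3, had 41.9 CPM (800 counts) in wild type and 29.4, 37.2 and 29.1 CPM in 3C, 3D and 3M (397, 541 and 451 counts). Its log2 fold change was -0.39 (SE 0.16, edgeR adjusted p = 0.49). Among the other factors, Cebpb had the only positive difference in all 3 clones of the branch, at 3.25 CPM (62 counts) in wild type and 3.34, 3.85 and 4.45 CPM in the clones, with a log2 fold change of 0.26 and a 95% interval of -0.41 to 0.94. Atf3, Atf5 and Cebpg lay on both sides of wild type, with log2 fold changes between -0.04 and 0.05. Ddit4, an inhibitor of mTORC1, had 27.6 CPM in wild type and 22.3, 26.4 and 24.5 CPM in the clones. The median over the 8 regulators was -0.11 on the log2 fold scale.

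All 3 clones lay below wild type for 3 of the 6 enzymes of serine and one-carbon metabolism, against 28.4% of all genes. The other 3 enzymes lay on both sides. The median log2 fold change over the 6 genes was -0.32, with clone medians of -0.54 in 3C, -0.08 in 3D and -0.41 in 3M. Serine synthesis runs through Phgdh, Psat1 and Psph in turn, and all 3 had lower means in the clones. Phgdh had 153 CPM in wild type (2914 counts) and 106, 137 and 115 CPM in 3C, 3D and 3M (1430, 1993 and 1782 counts). All clones were lower, with a log2 fold change of -0.36 (SE 0.14, unadjusted p = 0.049, edgeR adjusted p = 0.48). Of the 50-base stretches of its transcripts, 47.8% also occur in transcripts of other genes, most of them in Gm7901, so its count is less certain.

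Psat1 had 380 CPM in wild type (7247 counts) and 254, 384 and 292 CPM in 3C, 3D and 3M (3419, 5584 and 4530 counts). Clone 3D was at the wild-type level and the other clones were lower, with a log2 fold change of -0.29 (SE 0.21, edgeR adjusted p = 0.67). Psph, which releases serine in the last step, had 37.0 CPM in wild type (705 counts) and 25.1, 27.8 and 25.6 CPM in 3C, 3D and 3M (339, 405 and 396 counts). Here the 3 clones lay close together and below wild type. The log2 fold change of Psph was -0.50 (SE 0.11, 95% interval -0.77 to -0.22, unadjusted p = 0.0047, edgeR adjusted p = 0.25), or 0.708 of wild type.

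Mthfd2, which oxidizes one-carbon units in mitochondria, had 171 CPM in wild type (3265 counts) and 126, 152 and 126 CPM in 3C, 3D and 3M (1693, 2215 and 1958 counts), giving a log2 fold change of -0.35 (SE 0.12, unadjusted p = 0.034, edgeR adjusted p = 0.44). Shmt2, which moves a carbon from serine to folate in mitochondria, had 279 CPM in wild type and 255, 279 and 251 CPM in the clones, with a 95% interval of the log2 fold change from -0.30 to 0.11. Aldh1l2, a mitochondrial folate dehydrogenase, was the member whose clones disagreed most among those with 50 counts or more in a library. It had 7.29 CPM in wild type (139 counts) and 3.86, 11.1 and 5.42 CPM in 3C, 3D and 3M (52, 162 and 84 counts), so that 3D was above and the other clones below wild type. The clones spanned 1.5 on the log2 CPM scale, and the log2 fold change of -0.09 had an SE of 0.53.

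Asparagine synthetase (Asns), a classical Atf4 target, had 314 CPM in wild type (5985 counts) and 183, 302 and 196 CPM in 3C, 3D and 3M (2472, 4395 and 3039 counts). The clones 3C and 3M were far below wild type and 3D was close to it. The log2 fold change was -0.47 (SE 0.27, 95% interval -1.14 to 0.21, edgeR adjusted p = 0.60). Chac1, which degrades glutathione, showed the same order, with 19.9 CPM in wild type (379 counts) and 12.8, 17.3 and 13.3 CPM in 3C, 3D and 3M (172, 252 and 206 counts), giving a log2 fold change of -0.46 (SE 0.20, edgeR adjusted p = 0.51). Vldlr, a lipoprotein receptor, had 6.08 CPM in wild type and 4.67, 8.32 and 6.39 CPM in the clones, on both sides of wild type.

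Each of the 5 amino acid transporters lay below wild type in all 3 clones, against 28.4% of all genes. Their median log2 fold change was -0.26. Slc7a5 (LAT1), which takes up large neutral amino acids, had 417 CPM in wild type (7948 counts) and 346, 332 and 326 CPM in 3C, 3D and 3M (4670, 4837 and 5048 counts). The clones differed little from each other, and 3D was not the highest. The log2 fold change was -0.32 (SE 0.06, 95% interval -0.47 to -0.16, unadjusted p = 0.0031, edgeR adjusted p = 0.22). Its partner chain Slc3a2 had 286 CPM in wild type and 265, 268 and 247 CPM in the clones, giving a log2 fold change of -0.14 with a 95% interval of -0.32 to 0.05.

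The cationic amino acid transporter Slc7a3 had 121 CPM in wild type (2301 counts) and 95.2, 108 and 99.4 CPM in 3C, 3D and 3M (1283, 1578 and 1540 counts), giving a log2 fold change of -0.26 (SE 0.09, unadjusted p = 0.037, edgeR adjusted p = 0.45). Slc7a1, of the same function, had 198 CPM in wild type and 162, 190 and 156 CPM in the clones, giving a log2 fold change of -0.23 with a 95% interval of -0.52 to 0.07. Slc7a11, the cystine importer, was at the edge of detection, at 14 counts in wild type, and 1, 4 and 6 in 3C, 3D and 3M. Its level over the clones was 34.4% of wild type, with an exact 95% interval from 14.1% to 81.6% that covers counting error only. The reads on the opposite strand of Slc7a11 were nearly as many, 23 against 25 over the 4 libraries.

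The tRNA synthetases, which charge tRNAs with amino acids, had a median log2 fold change of -0.12 over 5 genes. Of these, 3 lay below wild type in all clones, against 28.4% of all genes. Aars, for alanine, had 830 CPM in wild type (15834 counts) and 666, 770 and 683 CPM in 3C, 3D and 3M (8985, 11205 and 10577 counts). All clones were lower and 3D was the nearest, with a log2 fold change of -0.23 (SE 0.09, unadjusted p = 0.047, edgeR adjusted p = 0.48). Sars, for serine, had 300.4 CPM in wild type and 229, 296 and 264 CPM in the clones, and Wars, for tryptophan, had 119 CPM in wild type and 110, 113 and 104 CPM in the clones. Gars, for glycine, and Nars, for asparagine, lay above wild type in 3D and below it in the other clones.

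Clone 3D was the highest of the clones for 23 of the 27 Atf4-branch genes (85.2%), against 36.2% of all genes, and 3C was the lowest for 19, against 33.9%. Below wild type were 26 of the 27 genes in 3C, 18 in 3D and 23 in 3M, against 49.8%, 49.4% and 50.4% of all genes. The clones share the wild-type library as their reference, so their differences from it are not independent, while the order of the clones does not use it. Without 3D, edgeR called 5 of the 27 genes at an adjusted p of 0.01, all lower, against 0.665% of all genes lower and 2.51% higher. They were Asns (log2 fold change -0.73, edgeR adjusted p = 0.00012), Psat1 (-0.48, 0.0037), Mthfd2 (-0.44, 0.0042), Phgdh (-0.47, 0.0051) and Aars (-0.30, 0.0088). In the same fit 18 of the 27 had an unadjusted p under 0.05, all lower, against 7.44% of all genes. Without 3C or without 3M, edgeR called 0 of the 27 at the adjusted threshold. Over all genes tested it called 1 of 13233 without 3C and 0 of 13176 without 3M. In either fit 2 of the 27 reached an unadjusted p under 0.05, both lower. Of all genes, 4.2% were lower at that threshold without 3C and 2.18% without 3M. The median log2 fold change of the branch was -0.15 without 3C, -0.30 without 3D and -0.18 without 3M.

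**Figure D4:**
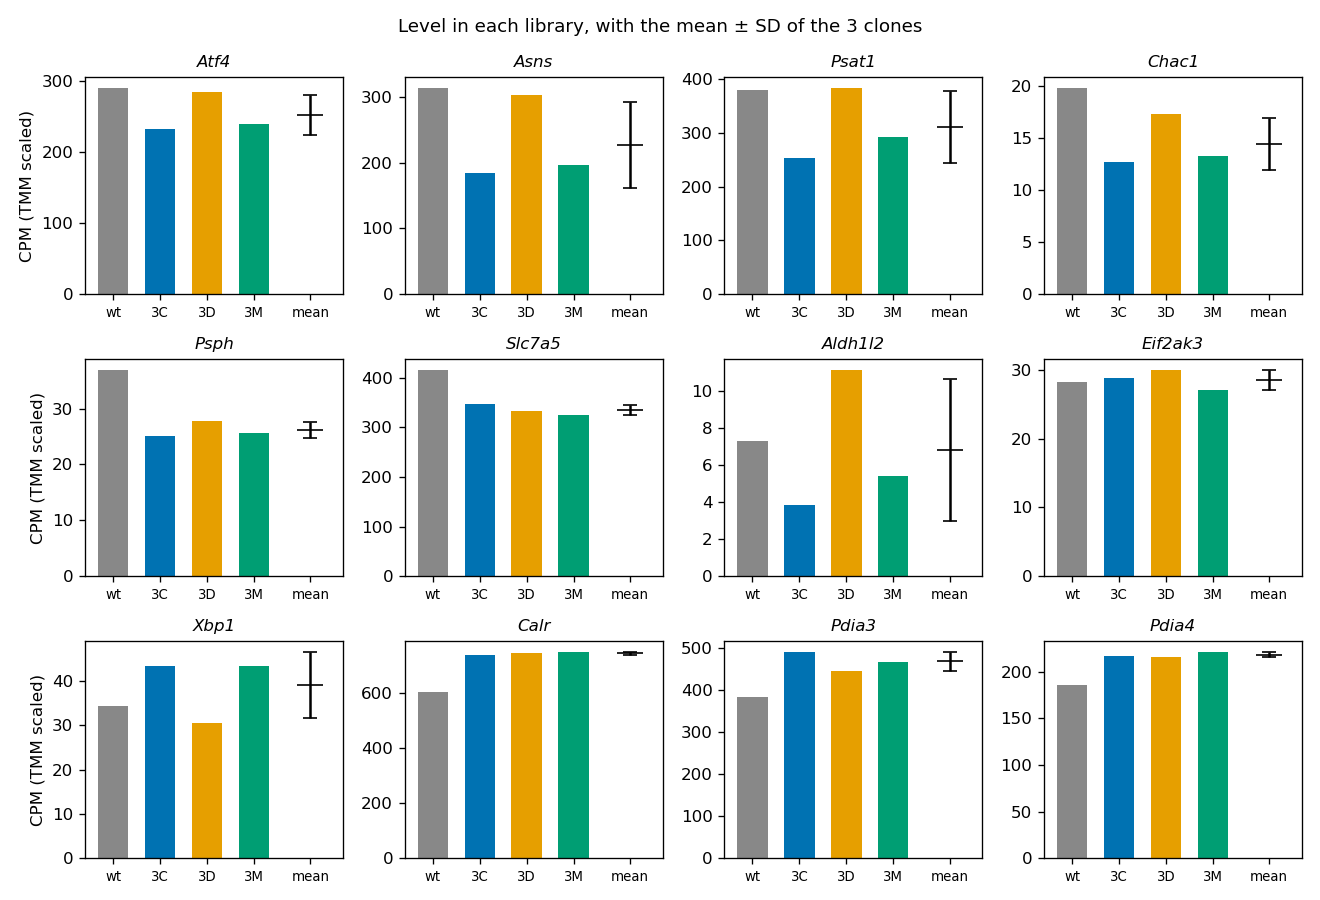
CPM in each library (bars, starting at 0) for 12 members, with the mean ± SD of the 3 clones at the right of each panel. Atf4, Asns, Psat1 and Chac1 were lower in 3C and 3M than in wild type and 3D, Psph and Slc7a5 were lower in all clones, and Calr, Pdia3 and Pdia4 were higher in all clones.

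The kinases that start the integrated stress response differed from wild type by less than their errors or little more. Eif2ak3 had 28.3 CPM in wild type (539 counts) and 28.8, 29.9 and 27 CPM in 3C, 3D and 3M (388, 435 and 418 counts), giving a log2 fold change of 0.01 (95% interval -0.27 to 0.30). Eif2ak4 had 42.7 CPM in wild type (815 counts) and 41.8, 47.7 and 41.1 CPM in 3C, 3D and 3M (563, 694 and 636 counts), giving a log2 fold change of 0.03 (95% interval -0.27 to 0.32). Eif2ak1 had 64.1 CPM in wild type (1223 counts) and 59.9, 61.6 and 58.2 CPM in 3C, 3D and 3M (808, 896 and 901 counts), giving a log2 fold change of -0.10 (95% interval -0.31 to 0.11). Each interval includes -0.20, the median of the Atf4 branch, so a difference of that size is not excluded. The activity of a kinase is not read from its mRNA.

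Ppp1r15a (GADD34), the stress-induced subunit that directs a phosphatase to eIF2α, had 25.7 CPM in wild type (491 counts) and 22.7, 22.1 and 22.3 CPM in 3C, 3D and 3M (306, 321 and 346 counts). The clones were close together and below wild type, with a log2 fold change of -0.20 (SE 0.11, edgeR adjusted p = 0.57). Its constitutive counterpart Ppp1r15b had 294 CPM in wild type (5616 counts) and 284, 318 and 321 CPM in 3C, 3D and 3M (3834, 4634 and 4978 counts), giving a log2 fold change of 0.07 (95% interval -0.16 to 0.29).

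Within the ER branch, 4 of the 5 lectin chaperones and disulfide isomerases lay above wild type in all clones, against 28.7% of all genes. Canx was the exception. None of the 3 degradation and cochaperone genes lay above wild type in all clones. Calr (calreticulin), which holds glycoproteins during folding and binds calcium, had 607 CPM in wild type (11575 counts) and 739, 748 and 751 CPM in 3C, 3D and 3M (9968, 10891 and 11642 counts). The clones agreed closely and all lay above wild type, as for 28.7% of all genes. The log2 fold change was 0.30 (SE 0.05, 95% interval 0.16 to 0.43, unadjusted p = 0.0019, edgeR adjusted p = 0.20), or 1.23-fold. Pdia3, the isomerase that works with calreticulin, had 384 CPM in wild type (7322 counts) and 491, 445 and 466 CPM in 3C, 3D and 3M (6619, 6476 and 7227 counts), giving a log2 fold change of 0.28 (SE 0.08, unadjusted p = 0.010, edgeR adjusted p = 0.32).

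Pdia4, a further disulfide isomerase, had 186 CPM in wild type (3549 counts) and 217, 216 and 221 CPM in 3C, 3D and 3M (2924, 3143 and 3430 counts), giving a log2 fold change of 0.23 (SE 0.06, unadjusted p = 0.013, edgeR adjusted p = 0.34). For Calr and Pdia4, 3D lay close to the other clones, as it did for Slc7a5 in the Atf4 branch. Pdia6 had 214 CPM in wild type and 228, 225 and 215 CPM in the clones, with a 95% interval of the log2 fold change from -0.11 to 0.23. Canx (calnexin), the membrane-bound relative of calreticulin, had 622 CPM in wild type and 615, 608 and 625 CPM in the clones, giving a log2 fold change of -0.01 with a 95% interval of -0.15 to 0.12. Calr, Canx and Pdia6 thus all held an ERSE match in the window shown above, with log2 fold changes of 0.30, -0.01 and 0.06.

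The sensors gave no common direction. Atf6 had 75.2 CPM in wild type (1434 counts) and 83.5, 83.7 and 81.3 CPM in 3C, 3D and 3M (1126, 1218 and 1260 counts), above wild type in each clone, with a log2 fold change of 0.14 (SE 0.08, edgeR adjusted p = 0.58). Ern1 had 11.7 CPM in wild type (224 counts) and 9.72, 10.1 and 9.23 CPM in 3C, 3D and 3M (147 and 143 counts in 3D and 3M), below wild type in each clone, with a log2 fold change of -0.28 (SE 0.15, edgeR adjusted p = 0.58). Xbp1 had 34.3 CPM in wild type (655 counts) and 43.5, 30.4 and 43.5 CPM in 3C, 3D and 3M (586, 443 and 674 counts). Clone 3D stood apart for Xbp1, below wild type where the others were above, and the log2 fold change of 0.19 had an SE of 0.22. Counts per gene do not separate spliced from unspliced Xbp1 mRNA, and splicing was not analysed here.

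Edem1, which hands misfolded glycoproteins to degradation, had 36.9 CPM in wild type and 31.6, 30.4 and 36.1 CPM in the clones, giving a log2 fold change of -0.17 with a 95% interval of -0.49 to 0.15. Sdf2l1, a cochaperone of Hspa5, had 15.4 CPM in wild type and 15.1, 14.3 and 12 CPM in the clones. Herpud1 had 24.3 CPM in wild type and 21.3, 23.6 and 24.4 CPM in the clones. The median over these 3 genes was -0.16 on the log2 fold scale, against 0.23 over the 5 lectins and isomerases. Without 3D, edgeR called 0 ER-branch genes at an adjusted p of 0.01, and 4 were higher at an unadjusted p under 0.05, against 11.2% of all genes. The lowest adjusted p of edgeR in that fit was 0.011, for Calr.

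Per length of merged exons, the members spanned a wide range of levels in wild type. Calr was the highest at 211 CPM per kilobase, followed by Gars at 182, Canx at 133, Atf4 at 123, Pdia3 at 122, Asns at 115 and Slc7a5 at 112 CPM per kilobase. At the lower end were Atf3 at 1.07, Aldh1l2 at 0.971, Vldlr at 0.604 and Slc7a11 at 0.0527 CPM per kilobase. Ddit3, at 3.12 CPM per kilobase, was far below its activator Atf4. The sensors and kinases had between 1.44 (Ern1) and 11.3 (Eif2ak1) CPM per kilobase.

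Beyond the members, 63 further genes of the same pathways were read, of which 34 belong with eIF2 and Atf4 and 29 with the ER. All but Fgf21 passed the filter, and 0 were called at an adjusted p of 0.01 by edgeR, DESeq2 or limma-voom. Of all genes, edgeR called 0.00754%, DESeq2 0.516% and limma-voom 0, so few calls were to be had in any list. At an unadjusted p under 0.05 in edgeR, 7 were lower, all in the eIF2 and Atf4 arm, and 5 were higher, all in the ER arm, against 4.42% of all genes lower and 5.92% higher. The same threshold gave 8 genes with DESeq2 (4 of them lower), against 1.18% lower and 3.21% higher, and 12 with limma-voom (7 lower), against 5.25% lower and 5.59% higher. The median log2 fold change was -0.12 over the eIF2 and Atf4 arm (clone medians -0.19, 0.02 and -0.11 in 3C, 3D and 3M) and 0.08 over the ER arm (0.09, 0.08 and 0.08).

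In the eIF2 and Atf4 arm the lowest unadjusted p belonged to Eif4ebp1, which restrains cap-dependent translation. It had 225 CPM in wild type and 149, 164 and 147 CPM in 3C, 3D and 3M, giving a log2 fold change of -0.55 (SE 0.08, edgeR adjusted p = 0.19). The transsulfuration enzymes, which make cysteine from homocysteine, were also lower: Cbs had 16 CPM in wild type and 9.42, 12.2 and 8.52 CPM in the clones, and Cth had 81.7 CPM in wild type and 46.8, 67.1 and 49.9 CPM in the clones. Their log2 fold changes were -0.67 and -0.58, and edgeR's adjusted p was 0.40 and 0.43. The glycine transporter Slc6a9 had 12.4 CPM in wild type and 7.86, 9.76 and 8.39 CPM in the clones. Mars, the methionine tRNA synthetase, had 268 CPM in wild type and 212, 223 and 222 CPM in the clones, and Shmt1, the cytosolic counterpart of Shmt2, had 194 CPM in wild type and 170, 169 and 165 CPM in the clones. All 3 clones lay below wild type for each of these 6 genes, which were picked by their low p. The same held for 14 of the 33 genes of this arm that passed the filter (42.4%), against 28.4% of all genes. For 7 genes of the arm (21.2%) all 3 clones lay above it, against 28.7%.

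In the ER arm all 3 clones lay above wild type for 16 of the 29 genes (55.2%), against 28.7% of all genes. They lay below it for 6 genes (20.7%), against 28.4%. Among the 16 were the chaperones Hspa5 and Hsp90b1, while the chaperone Hyou1 lay on both sides of wild type. The 16 also include all ER-arm genes of chromosomes 13 and 14, described below: Dnajc3, Ero1l, Ero1lb and Ssr1. Hspa5 (BiP) had 454 CPM in wild type and 522, 506 and 537 CPM in 3C, 3D and 3M, giving a log2 fold change of 0.20 (SE 0.06, edgeR adjusted p = 0.40). Hsp90b1 (GRP94) had 781 CPM in wild type and 885, 928 and 915 CPM in the clones, giving a log2 fold change of 0.22 (SE 0.06, edgeR adjusted p = 0.32). Dnajc3, an Hspa5 cochaperone, had 21.7 CPM in wild type and 35.4, 33.0 and 37.5 CPM in the clones, and Ero1l, which oxidizes disulfide isomerases, had 47.3 CPM in wild type and 64.0, 68.9 and 76.2 CPM in the clones. These are 1.63-fold and 1.47-fold, with edgeR adjusted p of 0.19 and 0.25. Both genes lie on chromosome 14, where the median difference over 446 genes was 0.35, 0.34 and 0.35 log2 CPM in 3C, 3D and 3M. The median over 439 genes of chromosome 13 was 0.50, 0.02 and 0.50. The part of these chromosome-wide differences in single genes was not tested. None of the 43 members is on chromosome 13 or 14, and of the other genes Iars, Ero1lb and Ssr1 are on chromosome 13. Without the genes of these chromosomes, a choice made after seeing the data, 7 of 57 genes were lower and 2 higher at an unadjusted p under 0.05 in edgeR. Of all genes placed on other chromosomes, 4.82% were lower and 3.98% higher. Over both arms together, the 2 higher genes are near that background. Both, Hspa5 and Hsp90b1, belong to the ER arm, for which alone this share was not computed. Without 3D, edgeR called Cth, Eif4ebp1, Dnajc3 and Ssr1 at an adjusted p of 0.01, with log2 fold changes of -0.76, -0.61, 0.75 and 0.64, against 3.17% of all genes in either direction.

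**Figure D5:**
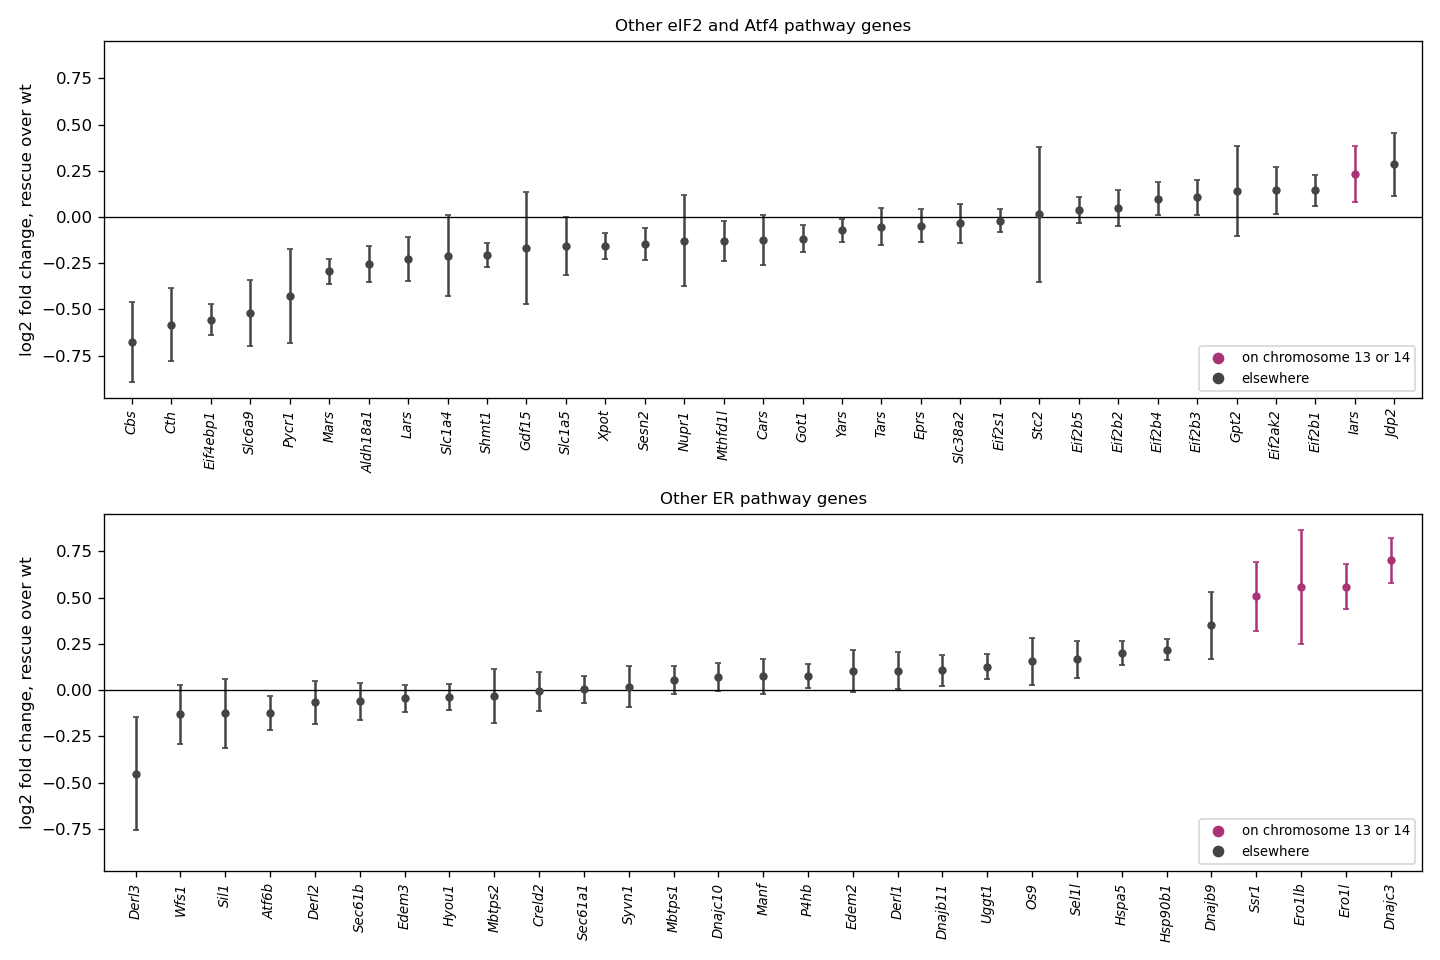
Log2 fold change of rescue over wild type (points) with its standard error (bars) for the 62 other pathway genes that passed the filter, the eIF2 and Atf4 arm above and the ER arm below, with genes of chromosomes 13 and 14 in a second colour. The medians were -0.12 in the upper and 0.08 in the lower panel, and the highest points of the lower panel are genes of chromosomes 13 and 14.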

How the data were processed

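RNA from 4 ES cell cultures was depleted of ribosomal RNA, made into libraries with a directional kit and sequenced as read pairs of 50 bases. The authors used STAR with mm10 for alignment, and what they deposited are raw counts of read pairs per gene without normalization. The annotation and the STAR version are not given in the sources used here. Samples were grouped by their labels into 3 rescue clones and 1 wild type, and whether the clones were cultured on separate days is not stated, so p-values measure only the spread between these clones. The reverse-strand column was used. Rows that name no gene, between 47.3% and 54.9% of read pairs, stayed out of library sizes and tests.

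The test was edgeR 4.0.16 in R 4.3.3 (filterByExpr, TMM, glmQLFit and glmQLFTest without the legacy option) over all 13267 genes that passed the filter, with Benjamini-Hochberg adjustment and an adjusted p of 0.01. The spread comes from the 3 clones, since wild type is 1 library. Differences in log2 CPM use a prior count of 2, and intervals are 95%. The steps were tested on simulated data. Alternatives were DESeq2 1.42.0, limma-voom (limma 3.58.1), DESeq2 size factors, the unstranded column, no filter, 10 counts in every library, an adjusted p of 0.05 and leaving out each clone. No libraries were copies of each other: the chi-square per gene was 6.98 to 10.6 for pairs of clones and 12.2 to 15.9 for wild type with each clone.

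The members and the lists of other genes were chosen with earlier results of these data known. Named in the text with their values are the regulators, in each branch the genes with an unadjusted p under 0.05 and the 4 with the largest fold changes, those with a clone range over 1 log2 unit, and 10 other pathway genes by lowest p. Further members are named to complete their role group. Promoter sequences came from RefSeq (GRCm38.p6, the assembly of mm10; the sites of 1 member are not reported here), and exon lengths and shared 50-base stretches from GENCODE transcripts.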

Additional observations from a re-analysis of the deposited data

How the results depend on the processing

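The number of genes called over the whole table was 1, and it was 0 with 10 counts in every library, 59 with DESeq2, 0 with limma-voom and between 0 and 420 when each clone was left out. The highest number came without 3D and the 0 without 3M. The calls among the Atf4 branch ranged from 0 to 5 and those among the other pathway genes from 0 to 4 over the same fits, with the highest numbers without 3D. The calls in the ER branch and among the kinases and phosphatase subunits were 0 under every alternative run. Each branch median stayed within 1 SD of the clones. Of 485 recomputed values over 54 genes, 463 kept their direction and side of the threshold, 10 passed it only under the alternative and 12 turned direction. Morc3 was among the 10, with a log2 fold change of 1.87 in DESeq2 and 1.98 without 3D. Cebpg was at 0.00 and gave -0.019 in the unstranded column, -0.00035 with DESeq2 size factors, -0.0024 without a filter, -0.0027 with 10 counts in every library and -0.0015 with limma-voom. With each clone left out, Cebpg ranged from -0.056 to 0.028, Aldh1l2 from -0.64 to 0.17, Atf3 from -0.042 to 0.15, Vldlr from -0.13 to 0.27, Eif2ak3 from -0.021 to 0.054 and Eif2ak4 from -0.046 to 0.066. The cause was not tested. No paired analysis was possible because wild type is a single library and shares only 1 replicate number with the clones. A missing call does not show equal levels.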

Other observations

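The members differed in how far their counts can be assigned. Of the 43 genes, 24 shared no 50-base stretch with transcripts of another gene, while 5 shared over 10%: Phgdh (47.8%, mostly with Gm7901), Cebpb (18.1%, Tmem189), Aars (13.8%, Exosc6), Aldh1l2 (13.6%, D10Wsu102e) and Ppp1r15b (10.6%, Gm26616). Read pairs on the opposite strand were a median of 0.0938% of those on the gene's own strand, and 8 members were over 2%. At Atf5 they were 71.7% and at Aldh1l2 16.2%.

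Together the 43 genes took 0.784% of the counts in wild type and 0.689%, 0.771% and 0.712% in 3C, 3D and 3M.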
